A study of Arabidopsis with 6 samples.

Results

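The cytosolic ribosome of plants has a small subunit, the 40S, built of the 18S ribosomal RNA and a set of proteins, and its body and platform form the part below the head. Arabidopsis encodes nearly every one of these proteins in several loci, the paralogs, whose products can take the same place in the subunit. The genes described here are 49 listed loci for 18 proteins of the body and platform: Sa, S2, S3a, S4, S6 to S9, S11, S13, S14, S15a, S21, S23, S24, S26, S27 and S30. The list was drawn up with earlier results of these data known, and its members are defined by locus. A locus counts as measured where the probe table pairs a probe set with that gene and no other. That left 27 loci of 14 proteins, of 13286 genes measured in all, each with 1 probe set. No locus of Sa, S6, S23 or S30 was measured. Of the 22 loci left out, 9 lie on probe sets that the table pairs with several genes and 13 have no probe set named for them there; they are not analysed here.

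Aerial parts of Arabidopsis thaliana grown on soil were compared for transcript levels between wild type (Col-3) and the apum23 mutant of the same cultivar, with 3 ATH1 arrays per genotype. All plants were 21 days old and were kept at 22 °C with 8 h of light and 16 h of dark per day, with no further treatment named. The growth protocol names the allele apum23-1, whereas the descriptions of apum23 replicates 2 and 3 read apum23-2 and apum23-3, so the group may hold more than 1 allele. The sources used here do not give the number of plants in a sample, so p-values concern these 6 samples only. On the deposited values limma used 1 spread pooled over all probe sets, not a gene's own spread.

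APUM23 belongs to the Pumilio family of RNA-binding proteins, resides in the nucleolus and takes part in processing the precursor of ribosomal RNA. Body and platform proteins bind that RNA while the subunit is being assembled, and several of them are known from yeast to be needed for cutting the 18S precursor to length. In the finished subunit the body carries the entry of the messenger RNA channel, and the platform its exit. How strongly the paralogs of 1 protein are used can differ between organs and conditions in plants.

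All values below are log2 intensities of probe sets, as deposited, so that a difference of 1 is a doubling on the linear scale. A gene was called, and is said to have risen, when its limma adjusted p was under 0.05 over all 22746 tested probe sets. In that fit every probe set had the same standard error, 0.22 for a log2 fold change, and the smallest change called was 0.66. Array medians ran from 5.34 to 5.94 in wild type and from 5.70 to 6.10 in apum23. Wild-type replicate 1 had the lowest, and its spiked-in hybridization controls averaged 5.51 against 9.76 to 10.06 on the other arrays. Each count is therefore also given after quantile normalization, which puts the arrays on 1 distribution and had a median standard error of 0.11. The leaf gene RCA, for Rubisco activase, was bright in both genotypes, at 13.75 ± 0.11 and 13.75 ± 0.16 (SD, n = 3), and was the 1 mesophyll marker of 6 that was measured. Of 4 root markers 3 were measured. EXPA7 and EXPA18 stayed between 3.43 and 4.36, where the arrays' lower quartiles were 3.41 to 3.84. PYK10 read 7.88 to 8.13 in wild type and 7.34 to 8.69 in apum23, and the summed linear intensity of the 3 was 266 to 308 in wild type and 190 to 447 in apum23. The shoot meristem marker CLV3, measured alone of 3, was dim at 3.08 to 3.75. None of the 10 markers of dividing cells was measured. In whole aerial parts a change in the share of cells that make much ribosomal protein and a change in transcript per cell cannot be told apart.

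Transcripts of the body and platform proteins were higher in apum23 nearly throughout. Among the 27 measured genes, 9 rose (33.3%), 18 missed the threshold and 0 fell, while 5.31% of all probe sets were called higher and 1.38% lower. The log2 fold change was above 0 in 26 of 27. The median was 0.52, against 0.08 over all probe sets. After quantile normalization 23 of 27 were called higher, or 85.2%, and 0 lower, where 9.69% of all probe sets were higher and 10% lower (limma). The median was then 0.49, against -0.02 over all probe sets. All 9 genes called on the deposited values were called on the quantile-normalized ones, which added 14. Called genes belonged to 8 of the 14 measured proteins on the deposited values and to 12 on the quantile-normalized ones.

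All apum23 arrays were brighter than all wild-type arrays for 22 of 27 genes, or 81.5%, where this held for 11.0% of all probe sets. After quantile normalization it held for 25 of 27 genes, or 92.6%, and for 15.9% of all probe sets. The count of 9 called genes dropped to 5 when wild-type replicate 2 was left out and to 4 when apum23 replicate 3 was, and came to 6 to 11 with any other array left out. Calls higher over all probe sets also dropped, from 1208 to 766 without wild-type replicate 2 and to 561 without apum23 replicate 3. Without wild-type replicate 1, whose spiked-in controls were low, 7 members were called higher and 0 lower, beside 779 probe sets higher and 851 lower in all, where the full set of arrays gave 1208 and 314.

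**Figure D1:**
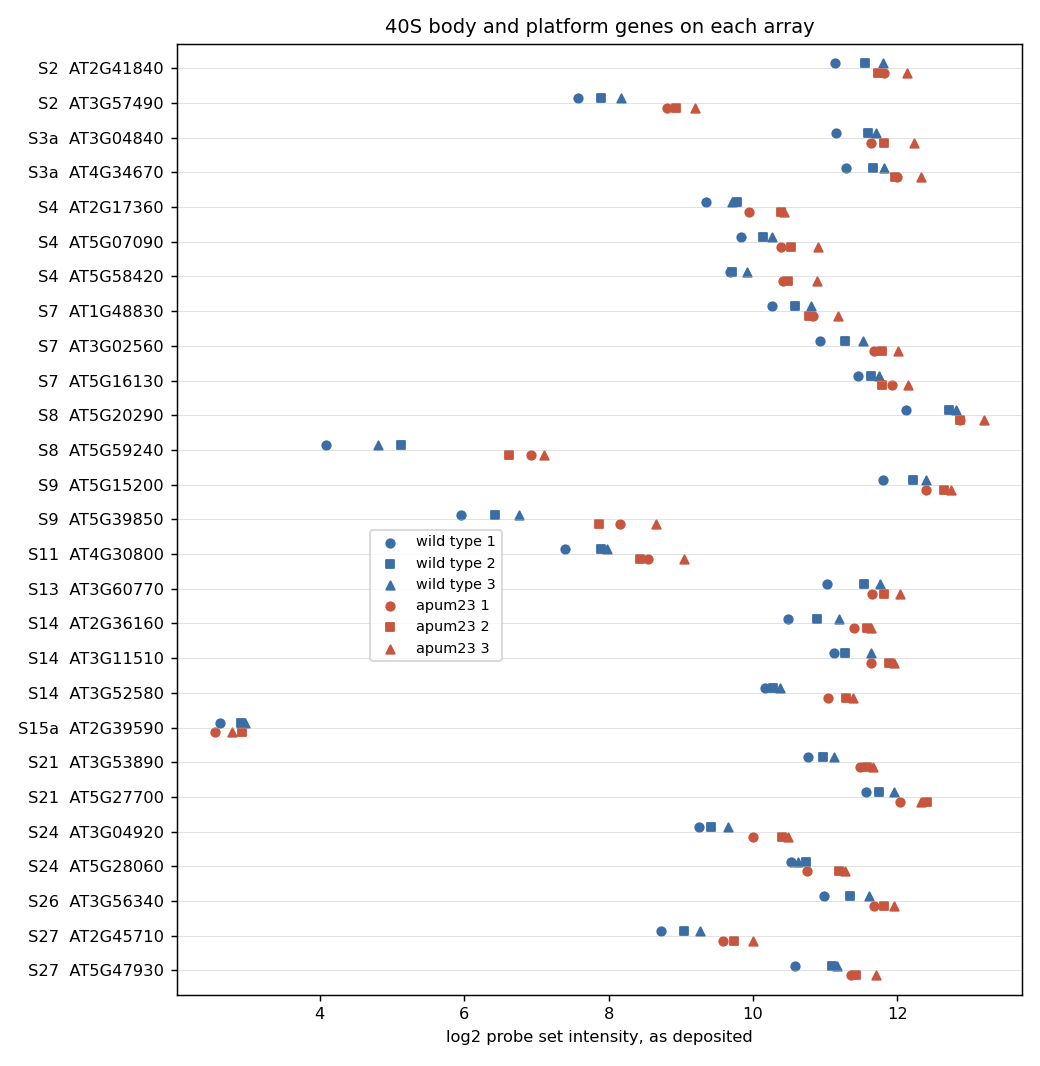
Log2 probe set intensity (horizontal axis, as deposited) of the 27 measured genes on each of the 6 arrays; wild type is blue, apum23 red, and the marker shape gives the replicate number. Levels of different rows are not comparable, because probes differ in affinity; within a row the red points lie right of the blue ones for 22 genes, and AT2G39590 of S15a stays between 2.55 and 2.96.

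The wild-type arrays did not sit at 1 level for these genes, and neither did the mutant arrays. Each gene was set against its own mean over the 6 arrays, and the median of these deviations over the 27 genes was taken per array. It was -0.58, -0.21 and -0.04 for wild-type replicates 1 to 3, then 0.13, 0.28 and 0.48 for apum23 replicates 1 to 3. Wild-type replicate 1 was the lowest of the 6 arrays for 26 genes, and apum23 replicate 3 the highest for 25. These are also the arrays with the lowest and the highest overall median. After quantile normalization these medians became -0.28, -0.25 and -0.20 for the wild-type arrays, then 0.25, 0.22 and 0.31 for apum23, and the lowest array was wild-type replicate 1 for 13 genes, replicate 2 for 8 and replicate 3 for 5. The arrays of a genotype thus lay closer together on that scale, and the genotypes stayed apart.

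**Figure D2:**
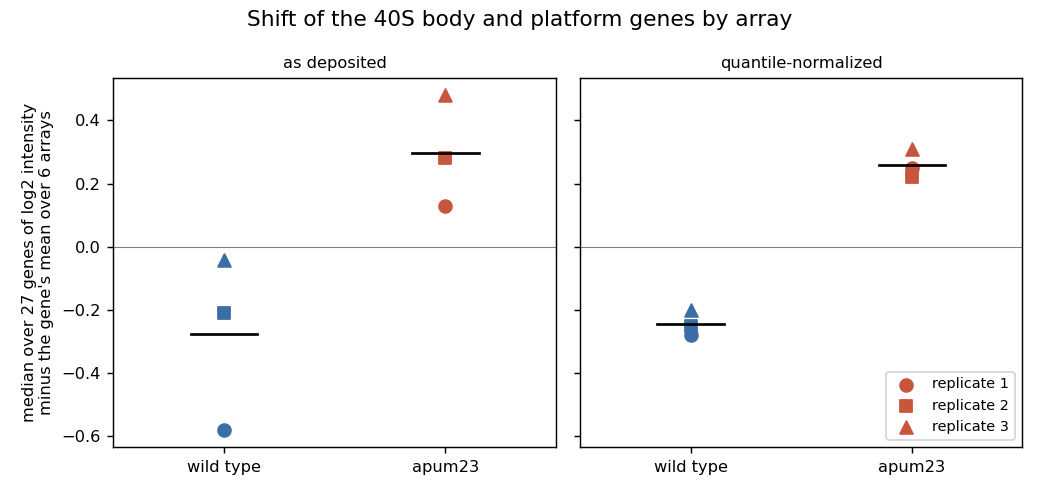
Median over the 27 genes of log2 intensity minus the gene's mean over the 6 arrays (vertical axis, log2), for the deposited values (left) and after quantile normalization (right); 1 point per array, with a bar at the mean of each genotype. On the left the arrays of a genotype spread from -0.58 to -0.04 and from 0.13 to 0.48; on the right they lie at -0.28 to -0.20 and at 0.22 to 0.31.

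S2 and S9 stand at the entry of the messenger RNA channel, and both are known from yeast for their effect on the accuracy of decoding. For S9 the 2 measured paralogs differed widely in response. AT5G39850 read 5.96, 6.42 and 6.76 on the wild-type arrays and 8.16, 7.86 and 8.66 on the apum23 arrays, with no overlap. It rose by 1.85, or 3.60-fold, from 6.38 ± 0.41 to 8.23 ± 0.41 (SD, n = 3; limma adjusted p = 6.97e-14 with the pooled spread). After quantile normalization the change was 1.75 (limma adjusted p = 1.79e-05). Its paralog AT5G15200 read 11.80, 12.21 and 12.39 in wild type, then 12.40, 12.65 and 12.74 in apum23; the lowest mutant array stood just above the highest wild-type one. The difference of 0.47 did not pass (limma adjusted p = 0.28), and passed after quantile normalization (0.38, adjusted p = 0.0151).

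For S2, AT3G57490 read 7.57, 7.90 and 8.17 on the wild-type arrays and 8.81, 8.94 and 9.19 on the apum23 arrays. The groups were clearly apart, and the gene rose by 1.10 (limma adjusted p = 6.2e-05; 1.04 after quantile normalization). AT2G41840 read 11.13, 11.55 and 11.80 in wild type against 11.82, 11.73 and 12.13 in apum23. Here apum23 replicate 2 fell within the wild-type range, and the difference of 0.40 passed on neither scale (limma adjusted p = 0.418 as deposited and 0.0718 after quantile normalization).

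The proteins of the platform surround the exit of the messenger RNA channel. Among them S14 lies close to the end of the 18S RNA, and in yeast it is needed for the last cut that forms that end. Its 3 paralogs were all measured and 2 rose. AT3G52580 read 10.16, 10.28 and 10.38 on the wild-type arrays and 11.04, 11.29 and 11.39 on the apum23 arrays. The spread within a genotype was small beside the gap between genotypes, and it rose by 0.97 (limma adjusted p = 0.000696). AT2G36160 read 10.48, 10.88 and 11.19 in wild type against 11.40, 11.58 and 11.64 in apum23. It rose by 0.69 (limma adjusted p = 0.035), a call that was lost without any 1 array other than wild-type replicate 3 (0.51 to 0.76 on the log2 scale, adjusted p 0.0852 to 0.189). AT3G11510 read 11.12, 11.28 and 11.64 on the wild-type arrays and 11.64, 11.88 and 11.95 on the apum23 arrays. Its groups touched, and the difference of 0.47 did not pass (limma adjusted p = 0.264; 0.0167 after quantile normalization).

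S27, a zinc-finger protein on the platform side, had 2 measured paralogs. AT2G45710 read 8.72, 9.05 and 9.26 in wild type against 9.59, 9.73 and 10.005 in apum23. It rose by 0.77 (limma adjusted p = 0.0147), and the call was lost without wild-type replicate 1 or 2 or apum23 replicate 2 or 3 (0.62 to 0.79 on the log2 scale, adjusted p 0.0512 to 0.159). AT5G47930 read 10.58, 11.10 and 11.17 on the wild-type arrays and 11.36, 11.42 and 11.71 on the apum23 arrays, a difference of 0.55 that did not pass (limma adjusted p = 0.144; 0.0033 after quantile normalization). Neither paralog had overlapping groups.

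S26, which contacts the messenger RNA at the exit of its channel, had 1 measured locus. AT3G56340 was at 11.32 ± 0.32 in wild type and 11.81 ± 0.13 in apum23 (SD, n = 3), a difference of 0.50 (limma adjusted p = 0.222; 0.0111 after quantile normalization). S3a, a large protein of the platform, had 0 of 2 genes called on the deposited values. Its paralogs differed by 0.51 (AT4G34670) and 0.42 (AT3G04840), with limma adjusted p = 0.209 and 0.383. Both passed after quantile normalization, at 0.42 and 0.34. AT3G04840 read 11.15, 11.59 and 11.70 in wild type against 11.63, 11.82 and 12.23 in apum23, and its groups overlapped. S21, a small protein beside Sa, gave 0.63 for AT3G53890 and 0.50 for AT5G27700 (limma adjusted p = 0.071 and 0.222). Both had groups that did not overlap and passed after quantile normalization, at 0.58 and 0.40, and AT3G53890 was also called without wild-type replicate 3 (0.71).

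S13 binds the central domain of the small-subunit RNA and forms a bridge to the large subunit. Its measured locus AT3G60770 read 11.02, 11.54 and 11.76 in wild type against 11.65, 11.82 and 12.04 in apum23. The groups overlapped, and the difference of 0.39 passed on neither scale (limma adjusted p = 0.429 as deposited and 0.053 after quantile normalization).

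The proteins S4, S7, S8, S11, S15a and S24 bind RNA of the body. The largest change of all members was in S8. AT5G59240 was dim in wild type, at 4.08, 5.13 and 4.81, below the median of each of those arrays and above their lower quartiles, and read 6.93, 6.62 and 7.10 in apum23. It rose by 2.21, or 4.63-fold (limma adjusted p = 4.31e-20 with the pooled spread). After quantile normalization the change was 2.08 (limma adjusted p = 1.54e-05). In a probe set this dim the size of a log2 change is uncertain. Its paralog AT5G20290 read 12.12, 12.72 and 12.81 on the wild-type arrays and 12.87, 12.87 and 13.20 on the apum23 arrays. The groups lay close together without overlap, and the difference of 0.43 did not pass (limma adjusted p = 0.348; 0.0239 after quantile normalization). That probe set lies near the top of the scale, as the arrays' maxima were 13.90 to 14.27, where intensities can be compressed; the part of this in the small difference was not tested.

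S4, whose 3 paralogs were all measured, had 1 call. AT5G58420 read 9.68, 9.71 and 9.92 in wild type against 10.41, 10.48 and 10.88 in apum23. It rose by 0.82 (limma adjusted p = 0.00711), and the call was lost without wild-type replicate 2 (0.79, adjusted p = 0.0819) or apum23 replicate 3 (0.68, adjusted p = 0.13). AT2G17360 read 9.35, 9.78 and 9.71 on the wild-type arrays and 9.95, 10.39 and 10.43 on the apum23 arrays, and AT5G07090 9.84, 10.14 and 10.26 against 10.39, 10.53 and 10.90. Their differences of 0.64 and 0.52 did not pass (limma adjusted p = 0.0604 and 0.181), although the groups of neither overlapped, and both passed after quantile normalization, at 0.61 and 0.50.

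S24, of which the human form is mutated in Diamond-Blackfan anaemia, had 1 of 2 genes called. AT3G04920 read 9.25, 9.42 and 9.65 in wild type against 9.998, 10.40 and 10.48 in apum23. It rose by 0.85 (limma adjusted p = 0.0045), and the call was lost without replicate 2 of wild type (0.84), or replicate 2 (0.80) or 3 (0.76) of apum23, with adjusted p of 0.0522 to 0.0754. AT5G28060 read 10.52, 10.73 and 10.62 on the wild-type arrays and 10.75, 11.19 and 11.28 on the apum23 arrays. Its apum23 replicate 1 stood only just above the wild-type arrays, and the difference of 0.45 did not pass (limma adjusted p = 0.312; 0.0382 after quantile normalization).

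S11, an early binder of the body's RNA in bacteria under the name S17, rose in its 1 measured locus. AT4G30800 read 7.39, 7.89 and 7.98 in wild type against 8.54, 8.43 and 9.05 in apum23, a change of 0.91 (limma adjusted p = 0.0017). It was not called without apum23 replicate 3 (0.73, adjusted p = 0.0845).

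S7, which takes part in early processing of the 18S precursor in yeast and human cells, had 0 of 3 genes called, and its largest difference was 0.57. AT3G02560 read 10.93, 11.28 and 11.52 on the wild-type arrays and 11.67, 11.78 and 12.01 on the apum23 arrays (0.57, limma adjusted p = 0.116; called without wild-type replicate 3 at 0.71). AT1G48830 read 10.26, 10.58 and 10.80 in wild type against 10.83, 10.77 and 11.18 in apum23 (0.38, limma adjusted p = 0.459), and its groups overlapped. AT5G16130 read 11.45, 11.63 and 11.75 on the wild-type arrays and 11.92, 11.78 and 12.15 on the apum23 arrays, with a difference of 0.34 (limma adjusted p = 0.563). After quantile normalization AT3G02560 (0.49) and AT1G48830 (0.37) passed, and AT5G16130 did not (0.24, adjusted p = 0.143).

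S15a binds the central domain of the 18S RNA. Of its 6 loci AT2G39590 was the 1 measured, and it read 2.61, 2.91 and 2.96 in wild type against 2.55, 2.92 and 2.78 in apum23. Every one of these values is below the lower quartile of its array. Intensities this low may not differ from background, which was not tested, so a fitted difference has no readable size. That difference was -0.08 (limma adjusted p = 0.989), the 1 value below 0 among the members, and it was 0.02 without apum23 replicate 1. Over the other 26 genes the median log2 fold change was 0.54.

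**Figure D3:**
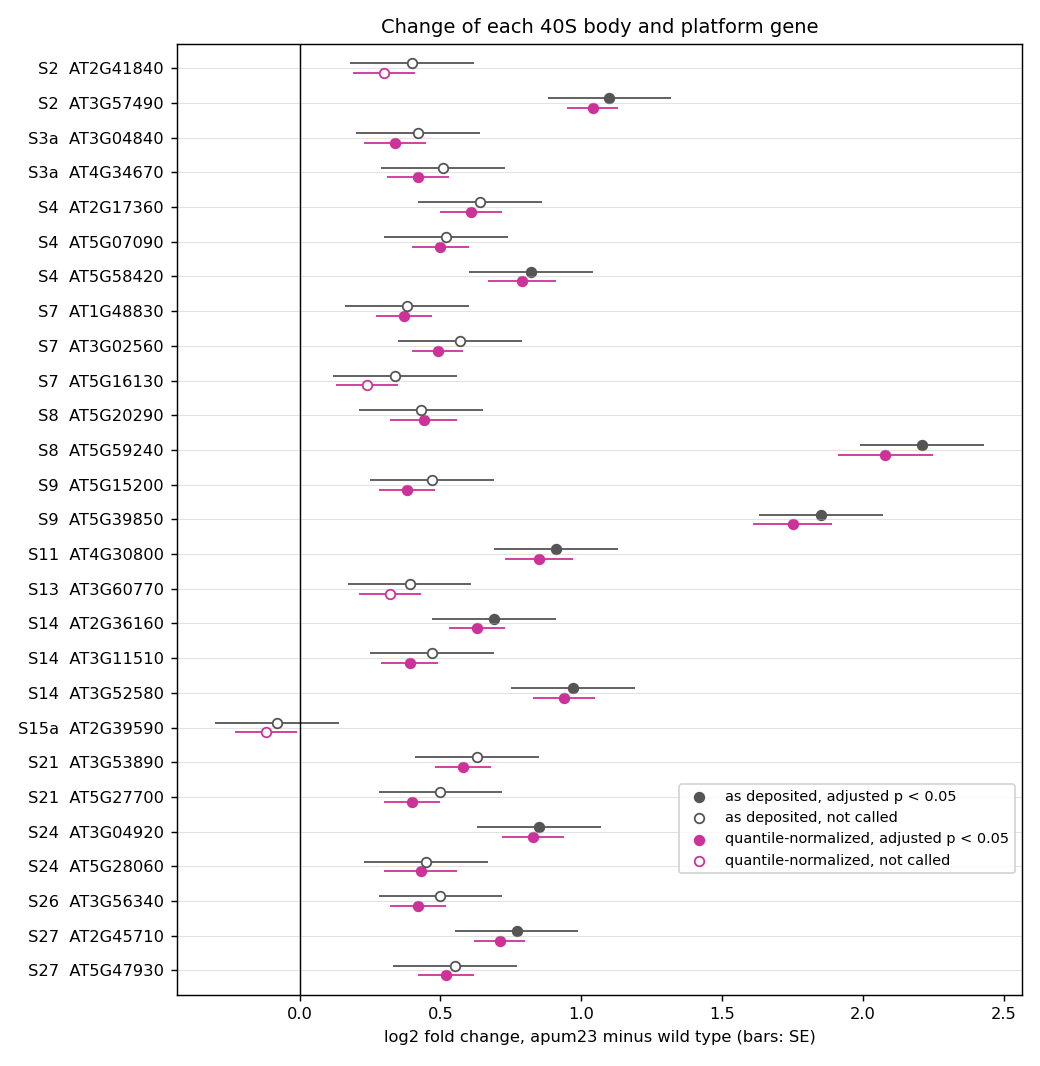
Log2 fold change of apum23 minus wild type (horizontal axis) with its standard error for each of the 27 genes, from the deposited values (grey) and after quantile normalization (magenta); filled points have a limma adjusted p under 0.05. Filled grey points number 9 and filled magenta points 23, and AT5G59240 of S8 and AT5G39850 of S9 lie farthest right at 2.21 and 1.85.

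Paralogs of 1 protein were compared within arrays. For each of the 16 pairs of measured paralogs, from 10 proteins, the log2 intensity of 1 locus minus that of the other was taken on each array, which removes any shift that an array gives to both alike. The level of this difference also holds the affinity of the probes, so that its change between genotypes is what can be read. In each pair the locus with the larger fold change was set first, so every change is positive by that choice. The changes ran from 0.04 to 1.78 with a median of 0.23. The wild-type and apum23 values of the difference did not overlap in 9 of the 16 pairs, from 8 proteins, and did not overlap in 10 pairs after quantile normalization, 8 of them the same pairs. These shares, 56.2% and 62.5%, were close to those over the 335 pairs of measured members of different proteins, 50.7% and 52.5%, so that the count of pairs is not a result about paralogs. For each of the 9 the two-sided exact permutation test gave p = 0.1, the lowest that this test reaches with 3 arrays against 3, so no pair could pass 0.05 by it. Pairs of 1 protein share loci and are not independent. A probe set named for 1 gene may still bind the transcript of a close paralog, which was not tested.

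The change was widest in S8, where AT5G59240 minus AT5G20290 was -8.04, -7.59 and -8.00 on the wild-type arrays and -5.94, -6.25 and -6.10 on the apum23 arrays, a move of 1.78. In S9 AT5G39850 minus AT5G15200 was -5.84, -5.79 and -5.63 in wild type against -4.25, -4.79 and -4.08 in apum23, a move of 1.38. In S2 AT3G57490 minus AT2G41840 went from -3.61 ± 0.05 to -2.91 ± 0.11 (SD, n = 3), a move of 0.70. For these 3 proteins the gap between genotypes was several times the spread within them. In each, the locus with the larger change also had the dimmer probe set, with wild-type mean differences of -7.88, -5.75 and -3.61. The part of probe set brightness in these moves was not tested. After quantile normalization the 3 moves were 1.64, 1.37 and 0.73.

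Smaller moves without overlap were seen in 5 more proteins. In S14 AT3G52580 minus AT3G11510 went from -1.08 ± 0.16 to -0.58 ± 0.02 (SD, n = 3), and AT2G36160 minus AT3G11510 from -0.50 ± 0.13 to -0.28 ± 0.03. In S24 AT3G04920 minus AT5G28060 went from -1.18 ± 0.19 to -0.78 ± 0.03. AT5G58420 minus AT5G07090 of S4 moved by 0.30, AT2G45710 minus AT5G47930 of S27 by 0.21, and AT3G02560 minus AT1G48830 of S7 by 0.19. The last of these overlapped after quantile normalization (0.12), and the others did not. Here too the locus with the larger change had the dimmer probe set, except in the S7 pair.

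In the other 7 pairs the genotypes overlapped. These were the pairs of S3a (0.09) and S21 (0.13), both S4 pairs with AT2G17360 (0.12 against AT5G07090 and 0.18 below AT5G58420), both S7 pairs with AT5G16130 (0.04 and 0.23), and AT3G52580 minus AT2G36160 of S14 (0.28). After quantile normalization both S7 pairs with AT5G16130 no longer overlapped (0.13 and 0.25). On the deposited values the exact permutation p of the 7 pairs ranged from 0.2 to 0.7 (two-sided), which does not show that these paralogs changed alike.

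**Figure D4:**
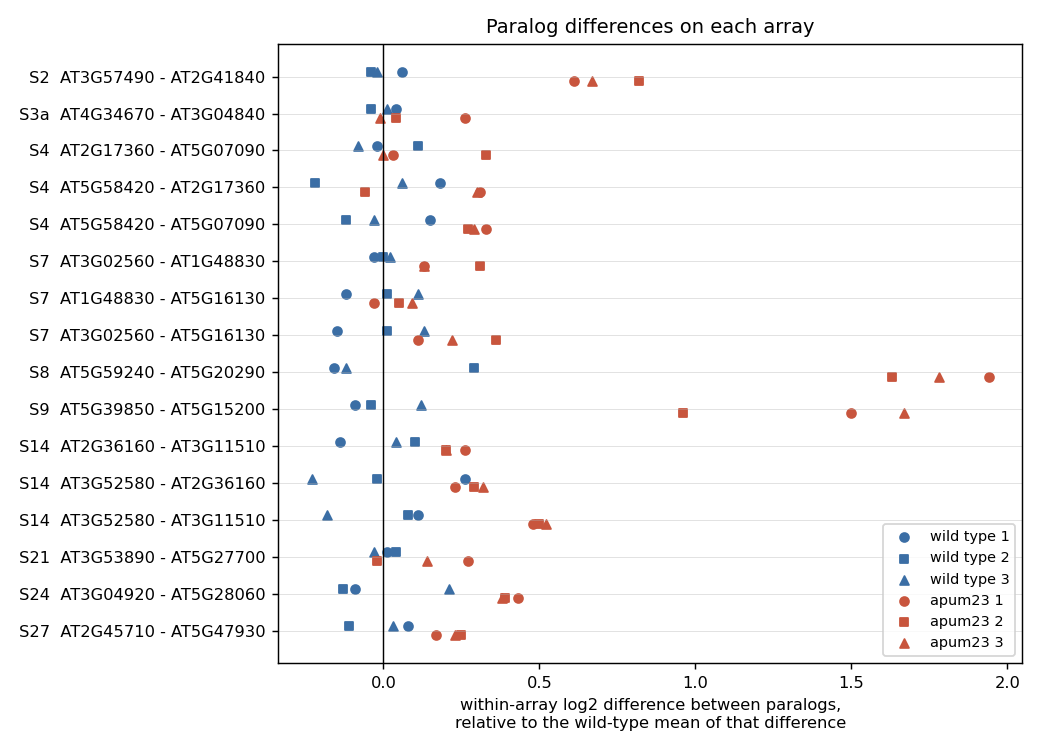
Within-array log2 difference between the paralogs of a pair, set to 0 at its wild-type mean (horizontal axis), for the 16 pairs; wild-type arrays are blue, apum23 arrays red, and the marker shape gives the replicate number. The red points stand clear of the blue ones in 9 pairs, by the most in S8 and S9, and mix with them in 7.

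Proteins of the head of the 40S subunit gave a like picture. Of 44 listed head loci 19 were measured. Among these, 10 were called higher and 0 lower, beside 5.31% and 1.38% of all probe sets. The 10 became 3 without apum23 replicate 2 or 3, and 4 or 6 with replicate 2 or 1 of wild type left out. Over all probe sets 1208 calls higher became 782, 561, 766 and 779 in these settings, in that order. The list had a median of 0.69 and a range from -0.02 to 0.96. AT5G09490, AT5G09500 and AT5G43640 of S15 and AT2G16360 of S25 had group means of 2.73 to 3.77, near or below the arrays' lower quartiles. Signal that may be near background limits their differences, which were -0.02 to 0.26 and make up the low end of that range. After quantile normalization 15 were called higher, beside 9.69% of all probe sets, and the median was 0.60. The 2 with the largest rise were AT5G09510 of S15, at 0.96 (limma adjusted p = 0.000885), and AT3G10610 of S17, at 0.94 (limma adjusted p = 0.00107). Whether the lists differ was not tested. RAPTOR1, of the TOR pathway whose S6 kinase phosphorylates S6, was the 1 measured gene of 5 on that list, and differed by 0.11 (limma adjusted p = 0.973; -0.01 after quantile normalization). None of 5 listed proteins that bind promoter elements of ribosomal protein genes was measured.

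**Figure D5:**
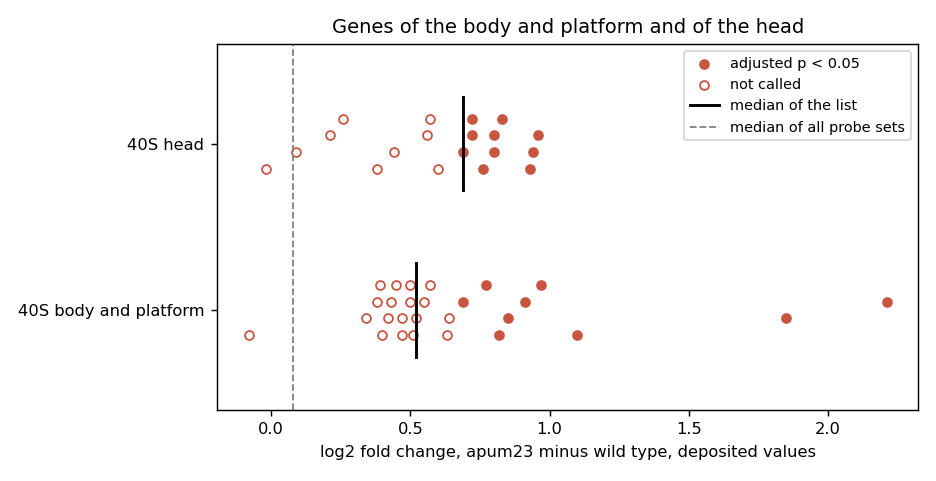
Log2 fold change of apum23 minus wild type from the deposited values (horizontal axis) for the 27 body and platform genes and the 19 head genes; filled points have a limma adjusted p under 0.05, black bars are list medians of 0.52 and 0.69, and the dashed line is the median of all probe sets, 0.08. Both lists lie right of the dashed line apart from AT2G39590 of S15a and 1 head gene at or below 0.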

How the data were processed

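RMA and limma are the tools named, without versions, per the submitters' processing notes. The values deposited by the authors are log2 probe set intensities, 1 column per array, and they were used as they stand. As deposited, the arrays did not share 1 distribution, with medians from 5.34 to 6.10. The test covered 22746 probe sets, which excludes 64 controls. Gene names came from the platform annotation, which pairs 13436 single-gene probe sets with genes of RefSeq's TAIR10.1 table. The comparison used lmFit and eBayes of limma 3.58.1 (R 4.3.3) without a block. Two-sided p-values were adjusted by Benjamini-Hochberg over the whole tested table. The prior degrees of freedom were infinite as deposited and 7.27 after quantile normalization, so in the first case a call amounts to a threshold on the fold change. The fit was also run on simulated data as a check of the code, and no result here rests on it. Paralog differences were tested by exact permutation. Alternatives were other scalings, a filter on dim probe sets, a replicate block, another variance model, stricter thresholds and arrays left out. Members and lists were chosen with earlier results of these data known. Every measured member is named, with values on each array for those with the largest and smallest changes, for dim ones and for paralog pairs without overlap. The number of arrays limits precision. Between the wild-type and the apum23 array of replicates 1, 2 and 3, the correlation of deviations was -0.287, 0.108 and 0.159. From these values it cannot be decided whether samples were paired by number, so results with a replicate block are also given. The planned search for promoter motifs was not run, as no promoter sequences were used here.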

Additional observations from a re-analysis of the deposited data

How the results depend on the processing

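All 9 called members kept a positive log2 fold change in every setting that tested them, and 0 members fell in any. Against 9 called members the count was 23 after quantile normalization, 21 with a replicate block added to it, 20 after quantile normalization without wild-type replicate 1, 18 with the replicate block on the deposited values, 4 to 11 with each array left out, 2 when apum23 replicate 1 stood alone for the mutant, and 3 where a log2 change of at least 1 was also asked. With a lone mutant array the spread comes from wild type and is assumed to hold for it. The median stayed between 0.35 (arrays centred on their medians) and 0.65 (without wild-type replicate 3), beside -0.09 and 0.12 over all probe sets in those settings. AT2G39590 changed sign, from -0.08 to 0.02, without apum23 replicate 1, and lay between -0.18 and 0.02 with each array left out. Paralog pairs without overlap numbered 9 to 12 in all settings with arrays compared as groups. Leaving out an array of the deposited values cannot make a pair overlap, and median centring leaves a within-array difference unchanged. In those settings the count could not fall below 9. After quantile normalization, where it could, it was 10, and 12 without wild-type replicate 1. With the replicate block 12 of 16 pairs had 1 sign in all 3 numbers. A pair without overlap on the deposited values has 1 sign in all of them by construction. This count could therefore not fall below 9 either.

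Of the 19 head genes, 10 called became 6 at an adjusted p under 0.01, 0 where a log2 change of at least 1 was also asked, 0 when apum23 replicate 1 stood alone for the mutant (limma), and from 3 to 12 with each array left out. Over all probe sets 1522 calls became 4481 after quantile normalization, 3992 with the replicate block added to it, 3717 after quantile normalization without wild-type replicate 1, 2997 with median centring, 2604 with the replicate block, 916 at an adjusted p under 0.01, 452 with the fold change threshold, 253 with the lone mutant array, and from 852 to 1842 when single arrays were left out. Calls higher in apum23 were 1208 of 1522 as deposited, 779 of 1630 without wild-type replicate 1, 2205 of 4481 after quantile normalization and 1196 of 2997 after median centring. The cause was not tested for these changes. Of the 6 arrays, 2 correlated best with the array of their own number, which does not settle whether the numbers pair the samples. Low signal limits S15a, S8 (AT5G59240) and the dim head genes of S15 and S25, and the top of the scale may limit the brightest probe sets.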
